A study of Arabidopsis thaliana with 6 samples.

Results

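The 403 windows described here are the stretches of the Arabidopsis thaliana genome whose CHH methylation depended on Pol IV and was barely restored when Pol IV lacked its DeCL domain. CHH is a cytosine followed by 2 bases other than G. Non-overlapping windows of 300 bp were laid from base 1 of each chromosome, and a window was covered when each of the 6 libraries listed at least 10 CHH cytosines in it. Its level was the share of methylated reads, pooled over the 2 libraries of a group, with a read counted at each CHH cytosine it covered. A window was Pol IV-dependent when the level with full-length NRPD1 exceeded that of the nrpd1-3 mutant by at least 10 points, and it was kept when the truncated protein restored less than 25% of that difference (the restored share). Of 397157 windows, 278507 were covered and 6805 were Pol IV-dependent, so the 403 made up 5.92% of the dependent windows. The other dependent windows were split into 4022 with a restored share of 25 to below 75% and 2380 with 75% or more. Because these levels chose the windows, the levels, differences and restored shares below that come from the pooled libraries are a description without a test.

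The data are whole-genome bisulfite sequencing of above-ground tissue from Col-0 plants aged 2.5 weeks, with 2 libraries in each of 3 groups. All groups carried the nrpd1-3 mutation, a T-DNA insertion that disrupts NRPD1, and were grown in 16 h of light and 8 h of dark. The group nrpd1-3 had no transgene, the group nrpd1dDeCL carried NRPD1 without its C-terminal DeCL domain (called NRPD1ΔCTD in the study), and the group NRPD1FL carried full-length NRPD1, each transgene bearing a FLAG tag at its C-terminus. Transgenic plants were selected with Basta herbicide, whether a group held 1 or several transformed lines is not given in the sources used here, and NRPD1FL served as the reference because wild type was not analysed here. The titles of the NRPD1FL samples name NRPE1, and the transgene field was followed. Relative to the median window of chromosome 1, reads per CHH cytosine over the NRPD1 gene (AT1G63020, chr1:23354685-23362589, minus strand) were 1.76 and 1.71 in nrpd1-3, 2.33 and 2.35 in nrpd1dDeCL, and 2.89 and 2.71 in NRPD1FL, so both transgenic groups lay above the mutant. The libraries held 12654903 to 13819039 CHH cytosines with at least 5 reads, at a mean of 15.2 to 16.3 reads.

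NRPD1 is the largest subunit of Pol IV, a plant-specific relative of RNA polymerase II. Pol IV transcribes mainly transposons and other repeats, RDR2 copies its transcripts into double-stranded RNA, and DCL3 cuts these into small interfering RNAs that guide the methyltransferase DRM2 to matching DNA. Methylation in the CHH context is not copied by a template strand at replication and has to be laid down again, which makes it the usual readout of this pathway. The DeCL domain lies at the C-terminus of NRPD1 and resembles a small protein family known from chloroplasts.

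The 5 windows with the largest pooled difference between NRPD1FL and nrpd1dDeCL are shown first, because they let the loss be seen base by base. They were taken from the 151 of the 403 that had at least 20 cytosines in every library and both NRPD1FL libraries above the other 4. They are given from 5′ to 3′ on the plus strand of RefSeq assembly TAIR10.1. Capitals mark the CHH cytosines, written as C on this strand and as G where the cytosine lies on the other strand, that were listed in all 6 libraries and whose pooled level was at least 30 points lower in nrpd1dDeCL than in NRPD1FL.
chr2:12725401-12725700: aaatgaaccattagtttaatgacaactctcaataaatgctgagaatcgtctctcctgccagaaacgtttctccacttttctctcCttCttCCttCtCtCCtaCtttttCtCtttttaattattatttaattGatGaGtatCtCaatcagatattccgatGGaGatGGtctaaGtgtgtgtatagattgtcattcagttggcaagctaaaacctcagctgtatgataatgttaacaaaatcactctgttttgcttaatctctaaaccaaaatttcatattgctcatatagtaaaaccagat
chr5:18737701-18738000: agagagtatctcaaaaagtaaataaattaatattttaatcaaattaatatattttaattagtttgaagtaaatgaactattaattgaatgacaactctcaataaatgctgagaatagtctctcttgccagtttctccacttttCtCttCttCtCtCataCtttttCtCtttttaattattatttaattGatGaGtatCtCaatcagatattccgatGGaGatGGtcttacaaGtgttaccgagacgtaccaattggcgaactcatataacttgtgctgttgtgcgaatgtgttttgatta
chr2:6544201-6544500: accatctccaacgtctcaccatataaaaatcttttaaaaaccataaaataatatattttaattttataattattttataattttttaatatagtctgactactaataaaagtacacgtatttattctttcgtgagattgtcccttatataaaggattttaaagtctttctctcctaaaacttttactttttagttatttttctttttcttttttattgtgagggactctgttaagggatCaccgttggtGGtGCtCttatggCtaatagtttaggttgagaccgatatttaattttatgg
chr4:14546401-14546700: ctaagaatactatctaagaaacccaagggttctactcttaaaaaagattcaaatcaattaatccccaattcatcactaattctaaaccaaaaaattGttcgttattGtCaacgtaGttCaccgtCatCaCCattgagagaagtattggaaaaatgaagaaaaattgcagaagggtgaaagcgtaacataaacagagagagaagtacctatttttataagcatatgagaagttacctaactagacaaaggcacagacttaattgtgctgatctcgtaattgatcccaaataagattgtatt
chr1:20024101-20024400: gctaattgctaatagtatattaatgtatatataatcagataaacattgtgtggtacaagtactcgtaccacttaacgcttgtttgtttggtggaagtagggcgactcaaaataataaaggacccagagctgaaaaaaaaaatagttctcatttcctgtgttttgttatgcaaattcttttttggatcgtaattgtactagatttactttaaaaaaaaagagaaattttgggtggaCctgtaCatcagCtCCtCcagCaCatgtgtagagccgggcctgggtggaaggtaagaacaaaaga
In the first window all 22 cytosines listed in every library were marked, 13 on the plus and 9 on the minus strand, and in the second window 20 of 23 were marked. In the third window all 7 listed cytosines were marked and 6 of these had no methylated read in either nrpd1dDeCL library. The fourth window had 9 of 11 cytosines marked, with 10 at 0 in nrpd1dDeCL. The fifth had 8 of 22 marked, all on the plus strand, and 18 of its cytosines were at 0 in nrpd1dDeCL.

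The window on chromosome 2 that heads this order (chr2:12725401-12725700) is intergenic, 948 bp upstream of AT2G29800 and 552 bp downstream of AT2G29810, which both encode galactose oxidase/kelch repeat proteins. Its level was 0% in both nrpd1-3 libraries, 2.72 and 8.74% in nrpd1dDeCL, and 69.0 and 62.8% in NRPD1FL. The zeros rest on 196 and 223 read counts summed over cytosines, in which 1 read can count at several cytosines. If these counts were independent, 3 methylated ones would mean upper levels of 1.53 and 1.35%. Counts from the same read are not independent, so these limits may be too tight even for counting error. Both NRPD1FL libraries lay far above the other 4, and the restored share was 9.12%. The second window, 847 bp upstream of AT5G46220 (a transmembrane protein of family DUF616), stood at 0.707 and 0.593% in nrpd1-3, at 0.973 and 1.10% in nrpd1dDeCL and at 54.2 and 55.1% in NRPD1FL. Here nrpd1dDeCL was nearly as low as the mutant, and the restored share was 0.714%. The third window lies 232 bp downstream of KCS8, a 3-ketoacyl-CoA synthase, enzymes that lengthen fatty acids. It stood at 0.526 and 0% in nrpd1-3, at 1.44 and 1.37% in nrpd1dDeCL and at 52.3 and 57.6% in NRPD1FL.

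In the fourth window, 235 bp downstream of AT4G29710 (an alkaline-phosphatase-like protein), no methylated read was found in nrpd1-3 (limits of 1.66 and 0.775%, if counts were independent). There nrpd1dDeCL had 0.985 and 0.901%, and NRPD1FL had 29.9 and 37.1%. The fifth lies in an intron of AT1G53640, an uncharacterized protein gene, with 0.361 and 1.29% in nrpd1-3, 2.15 and 0% in nrpd1dDeCL, and 29.1 and 35.4% in NRPD1FL, so the truncated protein and the mutant overlapped. The next 5 by the same order were at 7.15 to 11.7% in nrpd1dDeCL as group means and at 34.8 to 41.1% in NRPD1FL, with restored shares of 16.9 to 21.2%. They fell in introns of CYP706A7, a cytochrome P450 gene, and of PP2-B4, a phloem protein gene, in an untranslated exon of AT1G12020, and near AT2G14060 and AT3G45775. At the CYP706A7 window (chr4:7318501-7318800) the nrpd1dDeCL libraries disagreed, with 4.00 and 19.3%. Of these 10 windows, 9 met the rule within replicate 1 and within replicate 2 alike, and the CYP706A7 window was the exception. Of all 403 windows, 167 (41.4%) met it in both. The 10 were picked by these levels, so nothing is read from this count.

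**Figure D1:**
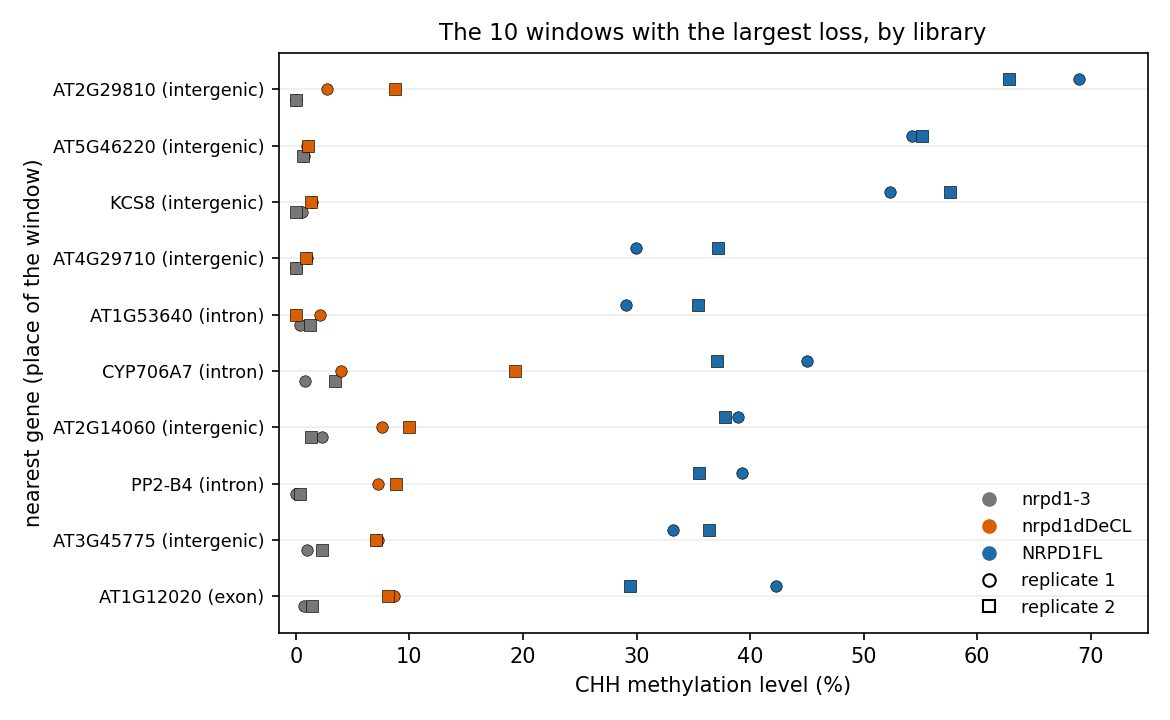
CHH methylation level (x axis, %) in each library for the 10 windows, of the 151 that met the conditions for naming, with the largest pooled difference between NRPD1FL and nrpd1dDeCL, named by the nearest gene (y axis). Circles are replicate 1 and squares replicate 2; both NRPD1FL libraries lie above the other 4 in each window, as the conditions for naming required, with means from 65.9% in the first to 35.9% in the last.

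Over all 403 windows, the read-weighted level was 3.24 and 2.94% in nrpd1-3, 5.31 and 5.32% in nrpd1dDeCL, and 20.7 and 19.97% in NRPD1FL. As group means these were 3.09% ± 0.213, 5.32% ± 0.00332 and 20.3% ± 0.523 (SD, n = 2). The medians over windows were 1.22 and 1.04% in nrpd1-3, 4.02 and 3.83% in nrpd1dDeCL, and 18.5 and 17.6% in NRPD1FL. The quartiles were 14.1 and 24.8% in NRPD1FL replicate 1 and 1.86 and 6.98% in nrpd1dDeCL replicate 1. The restored share was 12.9% from the reads pooled over the windows, with 12.9% from either nrpd1dDeCL library, against 57.6% ± 1.75 (SD, n = 2) and 86.1% ± 1.33 (SD, n = 2) in the other classes and 69.4% ± 1.56 (SD, n = 2) over all dependent windows. In NRPD1FL replicate 1 the 5th and 95th percentiles were 9.75 and 37.1%, and the highest window reached 73.8%.

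Window by window, both NRPD1FL libraries lay above both nrpd1dDeCL libraries in 393 of the 403 (97.5%). In the classes restored to 25 to below 75% and to 75% or more this held for 90.3 and 39.3%. The ranges of nrpd1dDeCL and nrpd1-3 overlapped in 174 windows (43.2%), against 1.94 and 0.042% in those classes. Both nrpd1dDeCL libraries were above both nrpd1-3 libraries in 224 (55.6%), against 98.1 and 99.96%. Both were below them in 5, against 0 in either class. In 49 windows (12.2%) both nrpd1dDeCL libraries stayed under 2%, against 0% in either class. The rule used these levels, so nothing is read from these counts. The libraries of a group differed by a median of 0.973 points in nrpd1-3, 1.71 in nrpd1dDeCL and 4.09 in NRPD1FL, and the NRPD1FL libraries differed by more than 10 points in 52 windows.

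**Figure D2:**
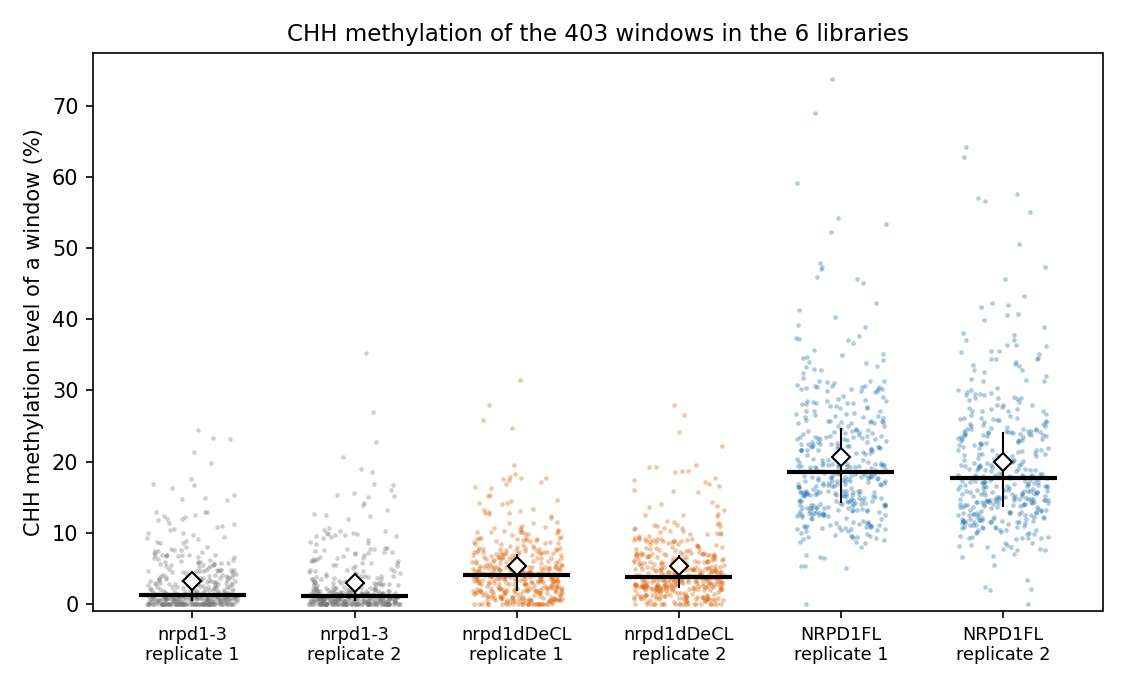
CHH methylation level (y axis, %) of each of the 403 windows in the 6 libraries (x axis). Each dot is a window, the thick bar is the median, the thin line spans the quartiles and the diamond is the read-weighted level, which lies near 3% in nrpd1-3, at 5.31 to 5.32% in nrpd1dDeCL and at 19.97 to 20.7% in NRPD1FL.

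A logistic regression of methylated and unmethylated reads on group was fitted over all 278507 covered windows, and a window was called where its p, after Benjamini-Hochberg adjustment over those windows, was at most 0.01 with 10 points or more between the pooled levels. nrpd1-3 was called below NRPD1FL in all 403 windows, against 2.44% of the windows tested. nrpd1dDeCL was called below NRPD1FL in 310 of the 403, against 0.541% of all windows. nrpd1dDeCL was called above nrpd1-3 in 1 of the 403, against 1.5% of all windows. Since the rule used these contrasts, the counts are given beside their backgrounds and nothing is read from them. In 309 windows the truncated protein was called below NRPD1FL and not above the mutant, a joint call that was not counted over all windows. In 93 the truncated protein was not called below NRPD1FL at this depth, and nothing is read from either count.

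The logistic model takes the read counts at each cytosine as independent, and models that estimate the spread between libraries called fewer windows. limma on arcsine square root levels called nrpd1-3 below NRPD1FL in 256 of the 403 (1.84% of all windows), nrpd1dDeCL below NRPD1FL in 3 (0.00108% of all windows, so these were the only 3 among the windows tested) and nrpd1dDeCL above nrpd1-3 in 0 (0.906% of all windows). At an unadjusted p below 0.05 and the same 10 points, limma picked nrpd1dDeCL below NRPD1FL in 307 of the 403 and in 1485 of all 278507 windows. It picked nrpd1dDeCL above nrpd1-3 in 1 of the 403 and in 4157 of all windows. An F test with the overdispersion of each window called 0 of the 403 and 0.0% of all windows in each of the 3 comparisons. At an unadjusted p below 0.05 and the same 10 points it picked 284, 192 and 1 of the 403. Over all 278507 windows it picked 5757, 738 and 3296. The rule used the same contrasts, so nothing is read from these counts.

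The restored shares of the 6805 dependent windows formed 1 broad hump, and the 403 are its lower tail rather than a separate group. Counts rose steadily through the tail, with 40 windows at 0 to 5%, 61 at 5 to 10%, 70 at 10 to 15%, 79 at 15 to 20% and 118 at 20 to 25%. A further 35 windows were below 0, where nrpd1dDeCL lay below the mutant. The 3 windows just inside the limit had restored shares of 24.95, 24.93 and 24.74%, and the 3 just outside had 25.1, 25.2 and 25.3%. Just inside, the window 1078 bp upstream of the pectin lyase-like gene AT3G15720 (chr3:5328601-5328900) had group means of 0.331% in nrpd1-3, 14.1% in nrpd1dDeCL and 51.3% in NRPD1FL. Just outside, the window chr5:8624701-8625000 had pooled levels of 10.6, 15.2 and 29.0% in the same order. The limit thus separates windows that hardly differ in restored share.

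**Figure D3:**
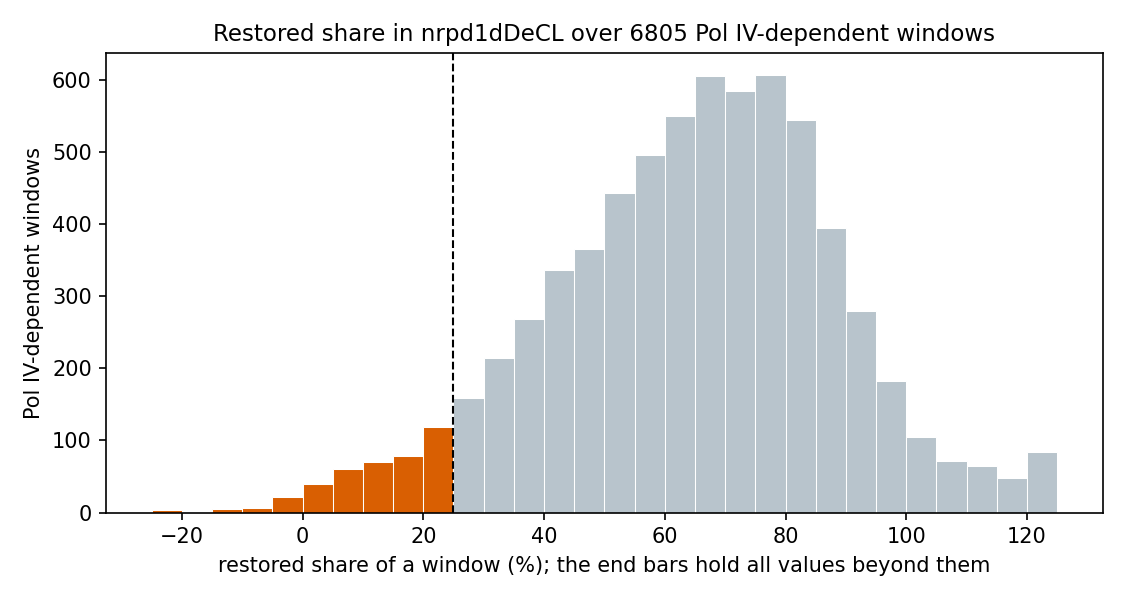
Number of Pol IV-dependent windows (y axis) by restored share in nrpd1dDeCL (x axis, %), in steps of 5 points, with all values beyond the ends placed in the end bars. The dashed line is the limit of 25%, and the orange bars to its left hold the 403 windows.

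The lowest restored shares under the conditions for naming (at least 20 cytosines in every library, NRPD1FL libraries above the rest) were -23.8, -8.88 and -5.37%. The first (chr4:2037901-2038200, in the heterochromatic knob of chromosome 4, 234 bp downstream of AT4G04223, annotated as another type of RNA) had 6.69 and 1.48% in nrpd1-3, 3.80 and 0% in nrpd1dDeCL, and 16.5 and 11.7% in NRPD1FL. The mutant and the truncated protein overlapped there, so the negative value lies within their spread. In the other 2, at chr5:11875201-11875500 and chr1:4685701-4686000, the mutant itself was at 8.73% ± 1.15 and 9.73% ± 1.38 (SD, n = 2), nrpd1dDeCL was at 7.90% ± 1.26 and 9.16% ± 0.0309 (SD, n = 2), and NRPD1FL was at 19.3% ± 0.813 and 20.02% ± 3.75 (SD, n = 2).

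Small differences dominated. The gain from nrpd1-3 to NRPD1FL was 10 to 15 points in 220 of the 403 windows and 40 points or more in 11, with a median of 14.5 points against 17.5 in all dependent windows. Of the dependent windows with a gain of 10 to 15 points 8.58% were barely restored, and of those with 40 points or more 2.68%. The windows also had fewer cytosines. In 249 (61.8%) at least 1 library listed fewer than 20 cytosines, against 43.1% of the dependent windows. The share of dependent windows that were barely restored fell with this count, from 8.48% at 10 to under 20 cytosines to 2.04% at 40 or more. The rule was therefore also applied to the levels of some libraries and read in others whose levels took no part in the choice. Coverage of at least 10 cytosines was still required in every library, including those others.

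When the rule was applied to the 3 libraries of replicate 1 alone, 694 windows were chosen with a restored share of 12.0%, and the same windows had a restored share of 37.7% in the replicate 2 libraries. In those libraries they stood at 4.93% in nrpd1-3, 9.92% in nrpd1dDeCL and 18.1% in NRPD1FL. Chosen on replicate 2, 680 windows had a restored share of 13.8% there and 36.0% in replicate 1, with 4.64, 9.47 and 18.1% in the same order of groups. Over all windows that were Pol IV-dependent in 1 replicate, the restored share in the other was 69.6 and 70.4%. In libraries whose levels did not choose them, these windows thus stayed well below the average of dependent windows and well above the value that chose them. NRPD1FL exceeded nrpd1dDeCL in 590 of the 694 windows (85.0%) and in 587 of the 680 (86.3%) in the unused libraries, a share that was 85.9 and 85.1% over all windows dependent in 1 replicate, so this direction did not set them apart. When the level of a single library took no part in the choice, the result depended on its group. Windows chosen without nrpd1dDeCL replicate 1 or 2 had restored shares of 14.0 and 12.0% in the libraries that chose them, and of 32.5 and 31.4% with the level of the library left out. Without NRPD1FL replicate 1 or 2 the values went from 13.0 and 13.3% to 15.9 and 17.0%. Without nrpd1-3 replicate 1 or 2 they went from 14.1 and 12.3% to 13.1 and 14.8%, so the shift was mainly one of the nrpd1dDeCL level.

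Both replicates chose 167 windows in common, 24.1% of the 694 and 24.6% of the 680. Of all windows dependent in replicate 1, 5.56% met the whole rule in replicate 2, and the reverse share was 5.94%. All 167 were among the 403 windows of the pooled rule, another 210 of the 403 were chosen by 1 replicate alone and 26 by neither. The 167 had read-weighted levels of 2.28 and 1.85% in nrpd1-3, 4.06 and 3.90% in nrpd1dDeCL, and 22.8 and 22.3% in NRPD1FL. The other 236 were closer to the limit, with 3.95 and 3.75% in nrpd1-3, 6.21 and 6.32% in nrpd1dDeCL, and 18.8 and 17.8% in NRPD1FL. Their median restored shares were 10.3 and 18.3%.

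**Figure D4:**
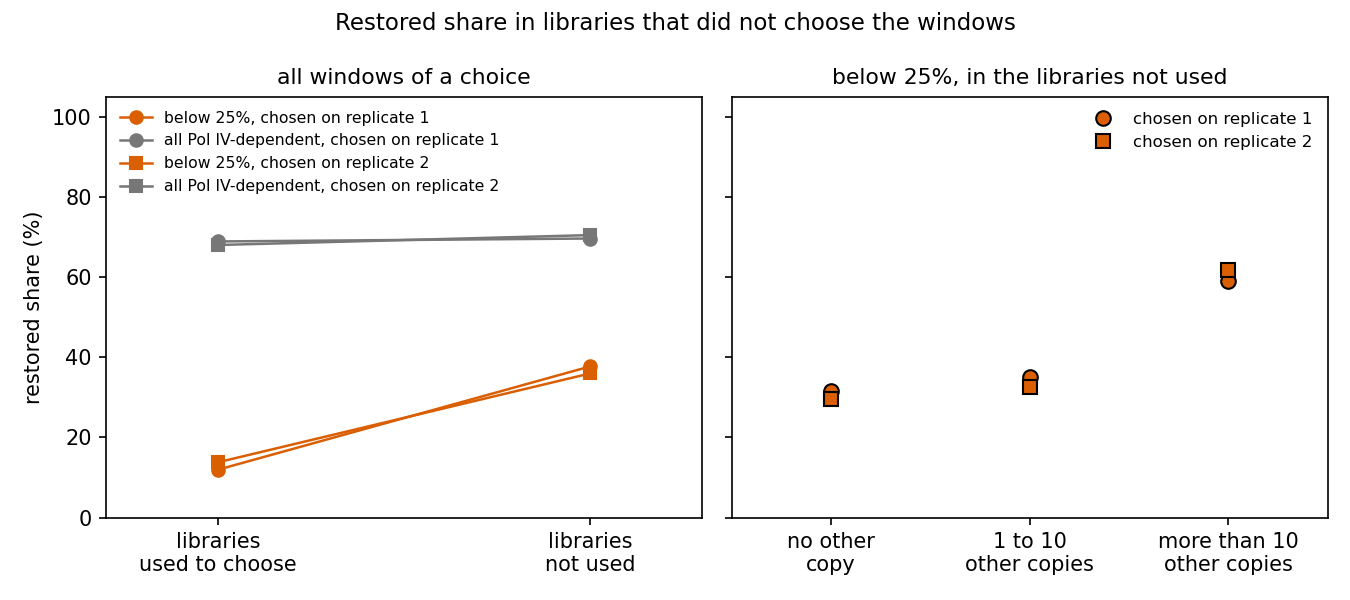
Restored share (y axis, %) of windows chosen on the levels of the libraries of 1 replicate number, with coverage required in every library. The left panel joins the value in the libraries used to choose with that in the libraries not used, for windows below 25% (orange, 12.0 to 37.7% and 13.8 to 36.0%) and for all Pol IV-dependent windows (grey); the right panel splits the orange values in the unused libraries by the number of other copies of the window in the genome.

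The windows had fewer copies in the genome than other dependent windows, a property that the rule did not use and that is given here by counts. A copy was a match elsewhere in the genome with at least 80% identity over at least 150 bp. Of the 403 windows 182 (45.2%) had no other copy, 168 (41.7%) had 1 to 10 and 53 (13.2%) had more than 10. Over all dependent windows the shares were 24.4, 33.8 and 41.8%, and among the windows with a restored share of 75% or more they were 19.7, 30.6 and 49.7%. In the chromosome arms 52.4% of the barely restored windows had no other copy, against 21.1% of the windows restored to 75% or more, and in the pericentromere the shares were 33.8 and 18.2%. The heterochromatic knob of chromosome 4 was counted with the pericentromere here and below. Seen the other way, 10.97% of the 1659 dependent windows without a copy were barely restored, 7.30% of the 2301 with 1 to 10 copies, 2.07% of the 2082 with 11 to 100 and 1.31% of the 763 with more than 100. The median gain was 16.3 points without a copy and 20.02 and 19.1 points in the bins above 10 copies, so the windows without a copy were also the ones with smaller gains.

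An order by copy number was also present in libraries whose levels did not choose the windows. Of the windows chosen on replicate 1, the 260 without a copy had a restored share of 31.5% in replicate 2, the 286 with 1 to 10 copies had 34.99% and the 148 with more than 10 had 59.0%. Of those chosen on replicate 2, the values in replicate 1 were 29.6% for 264 windows, 32.5% for 269 and 61.7% for 147. The first 2 values of each series were close and the third was far above them. The corresponding values in arms and pericentromere were 33.4 and 45.6%, and 31.7 and 43.7%. Over all dependent windows the read-weighted restored share was 65.5% ± 2.36 (SD, n = 2) without a copy, 66.1% ± 1.79 with 1 to 10 copies, 72.5% ± 0.977 with 11 to 100 and 76.6% ± 0.786 with more than 100.

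Some of the windows shared sequence with each other. Of the 403, 76 were linked to at least 1 other of them, in 28 groups of at most 4. Windows were linked when a match of 1 overlapped the other, even in part. Some linked windows, such as both at chr5:23166301-23166900, had no match of the required length of their own. They are therefore also among the 182 without another copy. The groups were formed among windows already chosen for low restoration and are described only. The group with the largest loss held the first 2 sequences printed above. The windows on chromosomes 2 and 5 matched at 89.4% identity over 170 bp and shared 1 stretch of 70 identical bases, in which the same 13 cytosines were marked in both.
chr2:12725401-12725700, shared stretch: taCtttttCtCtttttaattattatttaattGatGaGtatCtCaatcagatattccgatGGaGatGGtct
Another copy, 211 bp upstream of RBL3, a rhomboid-like protease gene (chr5:2276101-2276400), matched the second at 91.0% identity over 221 bp. It stood at 2.77 and 0% in nrpd1-3, 0.397 and 0.791% in nrpd1dDeCL, and 34.0 and 32.9% in NRPD1FL. Of 7 windows holding a copy of this sequence 4 were covered and dependent, and the fourth (chr1:6589501-6589800) had pooled levels of 18.5, 23.2 and 30.5% and a restored share of 38.9%. Reads that lie wholly inside the 70 identical bases cannot be assigned to 1 of the 2 places, and their part in these values was not tested.

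The fourth sequence printed above, on chromosome 4, belonged to a group of 3 windows with no further copy in the genome, and all 3 were barely restored. Its relatives lie 372 bp downstream of AT2G28570 (chr2:12243001-12243300) and 851 bp downstream of AT5G16200 (chr5:5288401-5288700), and they matched it at 91.5 and 91.4% identity on the opposite strand. The chromosome 2 relative had 0.763 and 0.418% in nrpd1-3, 2.74 and 0.926% in nrpd1dDeCL, and 17.2 and 20.6% in NRPD1FL. The chromosome 5 relative had no methylated read in nrpd1-3, 0 and 0.654% in nrpd1dDeCL, and 21.7 and 19.8% in NRPD1FL. The fifth sequence, in the intron of AT1G53640, matched windows near NRPE7, a Pol V subunit gene (chr4:8405101-8405400), and near CIA2, which acts in chloroplast protein import (chr5:23166301-23166900). Of the 5 dependent windows holding this sequence 4 were barely restored, with 0.387, 0.839 and 29.5% as pooled levels at the NRPE7 copy, and the fifth had a restored share of 25.9%. Those near CIA2 are touching windows crossed by the same match, so the 5 windows are not separate copies.

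In all, 11 groups, picked for this number, held 3 or more of the windows on at least 2 chromosomes. In 3 of these groups every dependent window with a copy was barely restored (4 of 4, 3 of 3 and 3 of 3), and in 5 others 3 or 4 of the dependent copies were, out of 4, 4, 5, 5 and 7. The remaining groups had 4 of 10, 4 of 25 and 3 of 7. Touching windows counted separately here even where they may hold parts of 1 copy, as at chr5:23166301-23166900 and chr1:28993501-28994100. To set this against the other classes, windows with 1 to 10 matches more than 1000 bp away were taken. For the barely restored windows these matches fell in 147 dependent windows, of which 31 (21.1%) were themselves barely restored and 14 (9.52%) were restored to 75% or more, so most copies were not barely restored. For windows restored to 75% or more the matches fell in 877 dependent windows, of which 12 (1.37%) were barely restored and 475 (54.2%) were restored to 75% or more. Copies share sequence, so they are not independent observations of a response.

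By position, 246 of the 403 windows (61.0%) lay in chromosome arms, against 54.7% of the dependent windows and 51.2% of those restored to 75% or more. The windows chosen on replicate 1 or 2 alone lay in arms in 55.6 and 54.3%, close to the dependent windows, while the 167 chosen by both did so in 65.3%. Every chromosome held some, with 104, 83, 73, 67 and 76 on chromosomes 1 to 5, which was 5.14 to 6.37% of the dependent windows of each. The midpoint was intergenic in 313 windows, in a pseudogene in 20, in a non-coding RNA gene in 9, in an intron in 22, in an untranslated exon in 23 and in a coding exon in 16. Thus 61 (15.1%) lay inside protein-coding genes, against 9.88% of dependent windows and 8.15% of those restored to 75% or more. Another 137 (34.0%) lay within 1000 bp upstream of such a gene, against 26.3 and 22.6%. For the windows chosen on replicate 1 or 2 alone the share inside genes was 11.7 and 12.8%, and the share upstream was 31.4 and 25.6%, so the higher upstream share was not found on replicate 2. The median distance to the nearest gene was 402 bp, against 556 bp over dependent windows. GC content was a median of 30.7% against 32.0%.

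Inside protein-coding genes, the windows named by their loss were those in AT1G53640, CYP706A7, PP2-B4 and AT1G12020 described above and 1 in an untranslated exon of AT3G44753, an uncharacterized protein gene (chr3:16302601-16302900). The AT3G44753 window had 0.391 and 0.181% in nrpd1-3, 7.28 and 3.23% in nrpd1dDeCL, and 30.4 and 29.6% in NRPD1FL. Upstream of genes, the first 2 were those near AT2G29800 and AT5G46220. The window 319 bp upstream of PAL3, a phenylalanine ammonia-lyase, the enzyme family that opens the phenylpropanoid pathway (chr5:1160101-1160400), had 3.17 and 1.94% in nrpd1-3, 12.0 and 4.23% in nrpd1dDeCL, and 28.5 and 34.4% in NRPD1FL. The window 295 bp upstream of AT4G00163 (chr4:68701-69000) had nrpd1dDeCL libraries at 1.08 and 12.4% and NRPD1FL libraries at 29.8 and 34.4%. The window 538 bp upstream of AT4G37500, annotated as an aldehyde oxidase/xanthine dehydrogenase (chr4:17624701-17625000), had 0.573 and 0.321% in nrpd1-3, 2.26 and 2.81% in nrpd1dDeCL, and 23.1 and 24.0% in NRPD1FL. The nrpd1dDeCL libraries of the PAL3 and AT4G00163 windows were far apart.

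Genes of the pathway itself were looked up within 1000 bp, as were those loci examined singly in the study that have a gene identifier. The transposon loci that the study also examined, such as AtSN1 and soloLTR, were not looked up. Of 25 genes of RNA-directed DNA methylation 22 were matched by name in the annotation, 2 had a dependent window and 1, DCL3, had a barely restored one. The DCL3 window (chr3:15753001-15753300), 237 bp upstream of the gene for the dicer that makes these small RNAs, had 0.489 and 1.73% in nrpd1-3, 3.77 and 4.90% in nrpd1dDeCL, and 18.4 and 13.1% in NRPD1FL, a restored share of 22.4%. None of 10 genes for maintenance or removal of methylation, such as CMT2, CMT3 and ROS1, had a dependent window. Of the 5 study loci looked up, all had a dependent window. Only AT5G24240, a phosphatidylinositol 4-kinase gamma-like gene (ERT9 in the study), had a barely restored one. That window, 100 bp upstream (chr5:8234101-8234400), had 3.24 and 0% in nrpd1-3, 1.56 and 5.76% in nrpd1dDeCL, and 25.5 and 14.8% in NRPD1FL, a restored share of 8.11%. Neither the DCL3 nor the AT5G24240 window met the rule in both replicates.

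Most of the windows stood alone. Of the 403, 383 touched no other of them and 20 formed 10 pairs. A touching dependent window of any class was present for 95 (23.6%), against 48.6% of the dependent windows and 56.2% of those restored to 75% or more. The 78 dependent windows of other classes that touched 1 had a restored share of 54.2% ± 0.854 (SD, n = 2) and a median of 48.7%, and 11 of them (14.1%) reached 75% or more. Windows below 25% are absent from these 78 by definition. Of the pairs, the first by loss lay upstream of CYCA3;2, a cyclin gene (chr1:17299801-17300400), with 28.1 and 25.7% in NRPD1FL and 10.3 and 6.98% in nrpd1dDeCL in its left window. The second, upstream of GA2OX7, a gibberellin 2-oxidase gene (chr1:18887701-18888300), had 19.8 and 17.2% in NRPD1FL and 0.952 and 0.386% in nrpd1dDeCL in its right window. The third ran from 66 bp upstream of CRK40, a cysteine-rich receptor-like kinase gene, into an untranslated exon (chr4:2288401-2289000), with 30.2 and 23.7% against 3.63 and 5.15% in the left window.

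In bins of 50 bp, NRPD1FL stood at 19.3 to 21.5% across the windows and at 11.8 to 12.7% in the outermost bins within 300 bp of the centre. nrpd1dDeCL dipped to 5.05 to 5.79% inside the windows while it stood at 8.05 to 8.90% in those outer bins. nrpd1-3 was lower inside the windows as well, at 2.56 to 4.05%, against 3.96 to 5.38% in the outer bins. The height in NRPD1FL and the dips in nrpd1dDeCL and nrpd1-3 inside the windows are values the rule used and are given as a description. In the adjoining windows, leaving out the 403 themselves, the read-weighted levels were 5.60% ± 0.396 in nrpd1-3, 8.88% ± 0.324 in nrpd1dDeCL and 12.5% ± 0.00476 in NRPD1FL (SD, n = 2), a restored share of 47.8%. At 600 bp the value was 59.6%. The medians fell faster, to 1.12, 2.64 and 5.34% in the adjoining windows and to below 1% in all groups at 600 bp, whereas around windows restored to 75% or more the medians in the adjoining windows were 3.11, 11.1 and 14.1%.

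**Figure D5:**
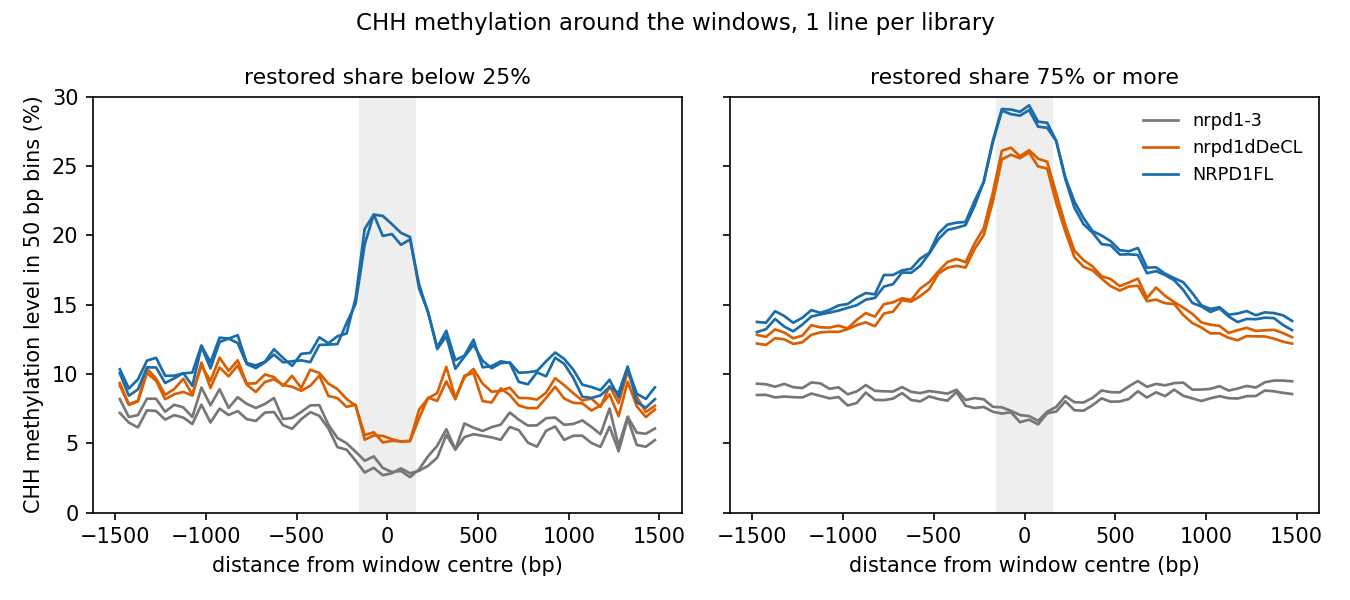
CHH methylation level (y axis, %) in bins of 50 bp by distance from the window centre (x axis, bp), with 1 line per library. The left panel shows the 403 windows (grey band: the window itself, where NRPD1FL reaches 21.5% and nrpd1dDeCL 5.05 to 5.79%), and the right panel shows the windows restored to 75% or more, where nrpd1dDeCL runs close to NRPD1FL. Neighbours that are also among the 403 are left out on the left, while neighbours of the same class are kept on the right.

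The levels were also split by the 9 CHH trinucleotides. In NRPD1FL the level was highest at CTA, with 27.2% ± 0.559, and at CAA, with 24.7% ± 0.930, and lowest at CAT, with 15.4% ± 0.630, and CCT, with 15.4% ± 0.179 (SD, n = 2). In nrpd1dDeCL CTA and CAA were at 9.40% ± 0.181 and 8.16% ± 0.174, and CAT and CCT at 3.17% ± 0.0375 and 2.77% ± 0.352. The restored share ran from 9.47% at CCT to 15.2% at CTA. The rule held the share over all CHH cytosines of a window below 25%, so these low values are given as a description. CTA and CAA were also the highest in nrpd1-3, at 6.21% ± 0.742 and 5.76% ± 0.494. The plus and minus strands had 20.7 and 20.7% in NRPD1FL replicate 1 and 19.2 and 20.7% in replicate 2. In nrpd1dDeCL they had 5.42 and 5.21% in replicate 1 and 4.98 and 5.66% in replicate 2, so neither strand was the higher in both nrpd1dDeCL libraries.

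Read depth over the windows differed between the groups in the same order as methylation. The windows held 0.0904 and 0.0850% of the reads at CHH cytosines in NRPD1FL, 0.0603 and 0.0565% in nrpd1dDeCL, and 0.0548 and 0.0521% in nrpd1-3. nrpd1dDeCL thus had 0.666 times the share of NRPD1FL, with exact permutation p = 0.333 (two-sided, n = 2 and 2), the smallest p this design can give. The ratio was 0.859 in the windows restored to 25 to below 75% and 0.916 in those restored to 75% or more. NRPD1FL listed 13839 to 14268 cytosines in the windows at 13.3 to 13.8 reads each, and the other groups listed 9997 to 10746 at 11.3 to 11.7. The cytosines behind a level thus differed between groups, and the part of this difference in the levels was not tested.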

How the data were processed

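The authors trimmed reads with cutadapt 1.9.1, aligned them to TAIR10 with Bismark 0.16.1 and, with methylKit 0.9.5, listed each CHH cytosine with at least 5 reads; these names come from the submitters' processing notes. The deposited files give a read count (coverage) and the percent of reads that kept a C or read T at each cytosine, not normalized. Methylated reads were recovered as coverage times that percent. Members and gene lists were chosen with earlier results of these data known.

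Levels were pooled per 300 bp window as stated above. Calls came from logistic regression over 278507 windows; alternatives were an F test with overdispersion per window, limma 3.58.1 in R 4.3.3, a replicate block, other depth, cytosine, difference and share limits, equal weight per cytosine, shifted windows, and each library left out. Copies were found with BLAST 2.17.0 (word size 16). Genes and sequence came from RefSeq TAIR10.1. Scripts used Python 3.11.15 and were tested on simulated data. Named windows were the 10 with the largest loss, the first 5 inside and 5 upstream of protein-coding genes and the 3 lowest restored shares, each with at least 20 cytosines in every library and both NRPD1FL libraries above the rest, together with the 3 on either side of the limit, the 3 longest runs of touching windows and windows near listed genes; relatives of the printed sequences were added after their values were seen. Coverage averaged 15.2 to 16.3 reads per cytosine. Transposon annotation was not used here.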

Additional observations from a re-analysis of the deposited data

How the results depend on the processing

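The 403 windows changed in number with each limit. With at least 10 reads per cytosine 170 windows were kept (4.86% of the dependent windows, restored share 14.2%), with 20 cytosines per window 154 (3.98%, 14.1%), with a difference of 20 points 104 (3.73%, 12.8%, and 74.0% in arms), with a limit of 15% 206 (3.03%, 5.45%) and with a limit of 35% 777 (11.4%, 21.7%). For all dependent windows the share in arms at 20 points is not given here. Their median gain at the main limit was 19.8 points in arms and 15.6 points in the pericentromere. The 74.0% is therefore not set against the main share of dependent windows in arms. Equal weight per cytosine gave 7.33% of the dependent windows, a restored share of 11.5% and 55.4% in arms. Shifting the windows by 150 bp gave a restored share of 14.2%. The libraries of number 1 alone gave 694 windows (9.90%, 12.0%, 55.6% in arms) and those of number 2 alone 680 (9.64%, 13.8%, 54.3%). Leaving out 1 library gave 376 to 571 windows, the higher count without nrpd1dDeCL replicate 1, or 5.35 to 8.39% of the dependent windows, with 54.4 to 62.5% in arms, a restored share of 12.0 to 14.1% and a read share ratio of 0.665 to 0.758.

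Of the calls by logistic regression, those of nrpd1-3 below NRPD1FL numbered 256 by limma, 104 with 20 points and 0 by the F test. Those of nrpd1dDeCL below NRPD1FL numbered 3, 70 and 0, and those of nrpd1dDeCL above nrpd1-3 numbered 0 by all 3. With 20 points, 1.0, 0.0596 and 0.493% of all windows were called in the 3 comparisons. Without 1 library the rule chose 376 to 571 windows anew. Among these windows, not among the 403, the 3 counts ran from 365 to 571, 288 to 425 and 0 to 3. Their shares over all windows were not computed. The same contrasts chose these windows, so nothing is read from the 3 ranges. With the replicate block nrpd1dDeCL was called below NRPD1FL in 309 of the 403 in place of 310, against 0.539% of all windows. Same-numbered libraries did not deviate together over all windows (r of 0.010, 0.002 and -0.002 for the 3 pairs of groups), and over the 403 windows r was 0.124 between nrpd1-3 and nrpd1dDeCL, -0.027 between nrpd1-3 and NRPD1FL and 0.014 between nrpd1dDeCL and NRPD1FL, so the numbers were not taken to pair them.

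As medians over windows, the restored share in unused libraries was 42.7 and 41.3%, and that of adjoining windows 36.1%. The share without another copy was 65.01% at 90% identity and 34.0% at a length of 100 bp, settings chosen after seeing the data, against 41.3 and 14.2% of the dependent windows. Of the named windows, the one just inside the limit at chr1:19248001-19248300 fell to the lowest fraction of its main value. Its loss from NRPD1FL to nrpd1dDeCL was 10.3 points, and 5.12 points without NRPD1FL replicate 2. In points others moved more, such as the CYP706A7 window, from 30.7 to 21.9 points without nrpd1dDeCL replicate 1. The small number of cytosines and reads limits single windows, and 2 libraries per group limit every test of spread.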
